A study of Homo sapiens with 14 samples.

Results

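Chemokines are small secreted proteins that attract leukocytes, and 10 chemokine genes that epithelial cells are known to make were followed here across treatments of a colon cancer cell line. The genes CXCL1, CXCL2, CXCL3, CXCL5, CXCL8, CXCL10, CXCL11, CCL2, CCL20 and CX3CL1 were taken by name, with earlier results of these data known, from 36555 genes in the deposited count table. All 10 have a row in it, and all 10 were among the 22179 genes left after a filter on low counts. Poly(A) RNA was sequenced from HT-29, an established human colorectal carcinoma line of wild-type genotype as labelled, and the study asked why the ferroptosis inhibitors ferrostatin-1 and liproxstatin-1 differ in their effect on apoptosis induced by tumour necrosis factor (TNF). Control cells (3 libraries) were kept in medium with 0.1% DMSO. The other groups were treated for 72 h with 20 uM ferrostatin-1 (2 libraries), 20 uM liproxstatin-1 (2), human recombinant TNF at a labelled 100 ug/ml (2), TNF with ferrostatin-1 (3) or TNF with liproxstatin-1 (2). The labels give no treatment time for control and no DMSO for the other groups. In comparisons with control, any difference in either cannot be told apart from the treatment. The replicates are described as technical, so p-values measure the spread between libraries of 1 line and no biological replication is known to enter them. Libraries are named by their group and the number of their count column.

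Chemokines act through G protein-coupled receptors on leukocytes. The CXC ligands with the ELR motif (CXCL1, CXCL2, CXCL3, CXCL5 and CXCL8) act on CXCR2, and CXCL8 also on CXCR1, and draw neutrophils into inflamed mucosa. CXCL10 and CXCL11 lack that motif, are induced by interferons and attract activated T cells through CXCR3. CCL2 attracts monocytes through CCR2, CCL20 attracts dendritic cells and lymphocytes through CCR6, and CX3CL1 (fractalkine) is made as a membrane-bound protein that is shed by the proteases ADAM10 and ADAM17. TNF binds its receptor TNFRSF1A and activates the transcription factor NF-kB, which binds short sites in the promoters of many chemokine genes.

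Promoter sequences are shown because several of these genes moved together under TNF. RefSeq promoters (GRCh38.p14) were matched by symbol for 8 of the 10 genes, and CCL2 and CX3CL1 had no entry. For CXCL1, CXCL2, CXCL3, CXCL5, CXCL8, CXCL11 and CCL20 the 150 bases before the RefSeq start site are printed, and for CXCL10 the 250 bases. They run 5′ to 3′ on the gene's own strand, and capitals mark matches to an NF-kB core (GGAATTTCC), the 10-base NF-kB consensus or an interferon response core (GAAANNGAA) on either strand.
CXCL1, chr4:73869243-73869392, plus strand: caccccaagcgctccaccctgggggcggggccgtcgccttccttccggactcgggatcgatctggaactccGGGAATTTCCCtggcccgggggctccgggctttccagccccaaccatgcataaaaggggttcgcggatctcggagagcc
CXCL2, chr4:74099196-74099345, minus strand: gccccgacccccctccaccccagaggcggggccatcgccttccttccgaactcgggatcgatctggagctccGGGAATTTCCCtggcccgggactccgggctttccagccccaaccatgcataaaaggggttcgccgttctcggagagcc
CXCL3, chr4:74038690-74038839, minus strand: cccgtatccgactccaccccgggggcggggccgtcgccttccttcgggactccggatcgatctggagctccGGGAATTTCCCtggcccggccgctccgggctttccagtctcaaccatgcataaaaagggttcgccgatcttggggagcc
CXCL5, chr4:73998678-73998827, minus strand: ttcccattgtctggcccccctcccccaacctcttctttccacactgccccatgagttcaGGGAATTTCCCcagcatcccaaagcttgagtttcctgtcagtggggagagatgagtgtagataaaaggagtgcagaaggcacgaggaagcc
CXCL8, chr4:73740419-73740568, plus strand: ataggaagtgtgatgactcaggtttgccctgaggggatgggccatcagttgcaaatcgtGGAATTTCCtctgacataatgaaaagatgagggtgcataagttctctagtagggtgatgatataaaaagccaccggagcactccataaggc
CXCL10, chr4:76023498-76023747, minus strand: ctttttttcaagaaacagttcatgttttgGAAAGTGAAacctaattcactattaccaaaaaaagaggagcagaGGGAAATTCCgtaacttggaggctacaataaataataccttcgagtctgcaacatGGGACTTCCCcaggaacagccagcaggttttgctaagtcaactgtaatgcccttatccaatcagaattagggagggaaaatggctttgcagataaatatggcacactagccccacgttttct
CXCL11, chr4:76036071-76036220, minus strand: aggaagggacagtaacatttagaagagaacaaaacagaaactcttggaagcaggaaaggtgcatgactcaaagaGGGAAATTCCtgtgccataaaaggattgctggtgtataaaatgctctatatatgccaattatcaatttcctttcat
CCL20, chr2:227813692-227813841, plus strand: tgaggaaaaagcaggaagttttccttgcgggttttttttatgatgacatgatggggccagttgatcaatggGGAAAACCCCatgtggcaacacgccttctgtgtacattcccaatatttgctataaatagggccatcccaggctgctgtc

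Within the 250 bases before the start site, 7 of the 8 promoters held the NF-kB core GGAATTTCC, all but CCL20. Of 27303 RefSeq promoter windows of the same length, 0.429% held it. The letters of this core were chosen after some of these promoters had been read, so the comparison is a description. The core began 77 to 91 bases before the start site in the 5 ELR genes, 75 bases before it in CXCL11 and 176 bases before it in CXCL10. The broader NF-kB consensus, which overlaps the core, was found in 7 of the 8 (all but CXCL8) and in 9.57% of all windows. CXCL10 held it at 2 places, 177 and 122 bases before the start. The interferon response core GAAANNGAA was found in CXCL2, CXCL3 and CXCL10, against 7.06% of all windows, and an AP-1 motif (TGANTCA) in CXCL8 and CXCL11, against 6.6%. The exact TATA box string TATAAA (forward strand only) was present in CXCL8, CXCL11 and CCL20, against 7.18%. Variants of it were not searched, so the other promoters are not shown to lack a TATA box. The windows of CXCL1 and CXCL3 were 84% identical, those of CXCL1 and CXCL2 78.8% and those of CXCL2 and CXCL3 78.4%. A match is only a run of letters in this window. The 5′ end of the gene in the deposited table equals the RefSeq start in 4 of the 8, and lies 28 bases upstream of it for CXCL8, 118 for CXCL3, 5345 for CXCL11 and 8103 for CCL20.

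By the coordinates of the deposited table, for which the sources name no genome build, the 5 ELR genes lie within 359 kb of chromosome 4. CXCL8 is at 73740541-73743716 on the plus strand, CXCL1 at 73869393-73871308 on the plus strand, CXCL5 at 73995642-73998677, CXCL3 at 74036589-74038807 and CXCL2 at 74097040-74099195, all 3 of them on the minus strand. CXCL10 (76021118-76023497) and CXCL11 (76033682-76041415) lie within 20.3 kb of each other on the same chromosome, on the minus strand. CCL20 is on chromosome 2 (227805739-227817556, plus strand), CX3CL1 on chromosome 16 (57372477-57385044, plus strand) and CCL2 on chromosome 17 (34255218-34257203, plus strand). Close relatives can share reads. In GENCODE v29 transcripts, 6.87% of the 75-base stretches of CXCL2 were also in CXCL3, and 4.57% of those of CXCL3 in CXCL2. CXCL1 shared 0.245% of its stretches with CXCL2, and the other 7 genes shared none with any chemokine gene of the CXC, CC, CX3C or XC family. These are shares of sequence only, and their effect on the counts of CXCL2 and CXCL3 was not tested.

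Total counts ran from 59913850 to 75838597 per library. The TNF libraries differed most within a group: a chi-square of their counts over genes was 226 per degree of freedom, against 16.1 to 82.5 for the 9 other within-group pairs. No libraries of a group agreed within sampling noise. Epithelial identity was checked with 10 markers, whose summed level was 9386 to 14058 normalized CPM (counts scaled to the TMM-adjusted library size) over the 14 libraries. KRT8 (4788 to 7362 CPM) and EPCAM (427 to 543 CPM) were high in every library, while CDX1 was at 0 in 1 library and did not exceed 0.397 CPM. Of 11 leukocyte markers, 8 had a row and summed to 809 to 1183 CPM, of which LYZ, a gene that intestinal epithelium also expresses, made up 762 to 1137 CPM. PTPRC, the pan-leukocyte marker, was at 0 in 13 of 14 libraries and FCGR3A in 12. The myeloid markers CD14 (8.29 to 12.6 CPM), CD68 (7.1 to 21.1 CPM) and ITGAM (0.21 to 23.2 CPM) were above 0 in all 14, while CSF1R did not exceed 0.356 CPM. The 10 fibroblast and endothelial markers summed to 10.9 to 57.8 CPM.

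In the comparison of TNF with control, where neither compound was given, 8 of the 10 chemokines rose and none fell. All values here are normalized CPM, and called means an adjusted p under 0.05 in edgeR's quasi-likelihood test with Benjamini-Hochberg adjustment over all 22179 genes. Of all genes tested, 8.24% were called higher. The median log2 fold change was 2.40 over the 10 chemokines and -0.02 over all genes. In bulk RNA, a change in the share of cells that express a gene and a change in RNA per cell cannot be told apart.

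**Figure D1:**
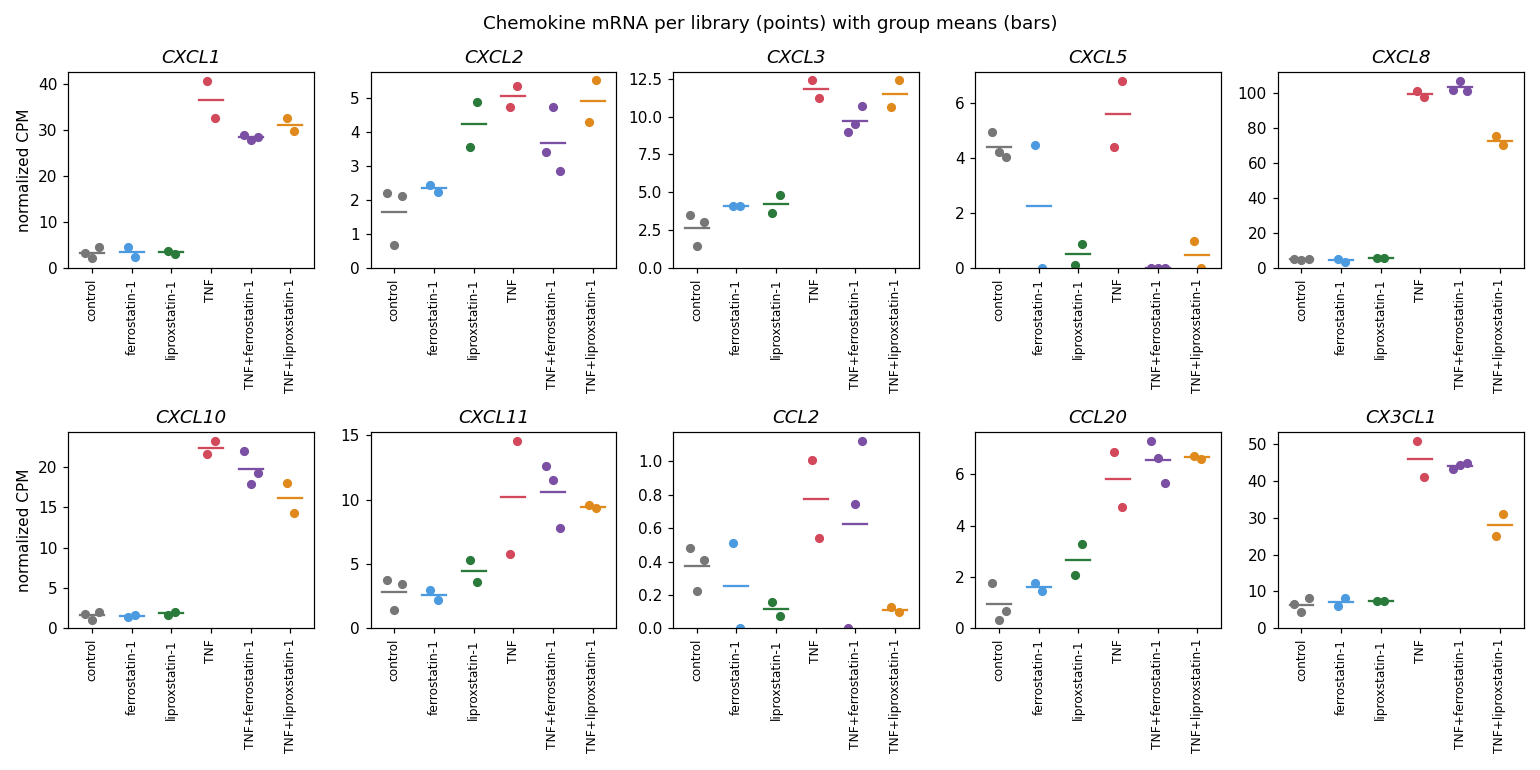
Normalized CPM (vertical axis, linear from 0, scaled separately for each gene) of the 10 chemokines in each of the 14 libraries; points are libraries and bars are group means. CXCL8 lies at 3.57 to 5.9 CPM in the 7 libraries without TNF and at 70.2 to 107 CPM in the 7 with it, whereas CXCL5 is at 0 in 5 libraries.

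CXCL8, the main neutrophil attractant, was at 5.31, 4.57 and 5.4 CPM in the control libraries and at 101 and 97.9 CPM with TNF. The groups lay far apart, with a log2 fold change of 4.28 ± 0.14 (SE), or 19.5-fold (adjusted p = 8.23e-09). CXCL1 was at 3.18, 2.2 and 4.56 CPM in control and at 40.7 and 32.5 CPM with TNF. Its log2 fold change was 3.47 ± 0.29, or 11.1-fold (adjusted p = 1.13e-05). CXCL3 was at 3.48, 1.45 and 3.01 CPM in control and at 12.4 and 11.2 CPM with TNF, again without overlap. It rose by 2.16 ± 0.28 on the log2 scale (adjusted p = 3.99e-04). CXCL2 showed a smaller rise, from 2.2, 0.664 and 2.12 CPM to 4.75 and 5.37 CPM, with a log2 fold change of 1.61 ± 0.40 (adjusted p = 0.0201).

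CXCL5 stood apart from the other ELR genes. It was at 4.96, 4.24 and 4.03 CPM in control and at 4.42 and 6.8 CPM with TNF, and the groups overlapped. The log2 fold change was 0.35 with a 95% interval from -2.79 to 3.49 (adjusted p = 0.909), so the data do not fix its direction. Libraries within other groups, which share the estimate of spread, differed strongly for this gene. Its promoter carries the same NF-kB core as those of CXCL1 and CXCL8 printed above.

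The interferon-inducible ligands rose as well. CXCL10 was at 1.82, 0.996 and 2.02 CPM in control and at 21.6 and 23.2 CPM with TNF, a log2 fold change of 3.80 ± 0.25, or 13.9-fold (adjusted p = 1.60e-06). CXCL11 was at 3.76, 1.39 and 3.42 CPM in control and at 5.81 and 14.6 CPM with TNF. The TNF libraries of CXCL11 lay far apart, both above all controls (log2 fold change 1.83 ± 0.43, adjusted p = 0.015). Without TNF library 3, the higher one, this call was lost and the log2 fold change was 1.02.

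Of the CC ligands, CCL20 rose and CCL2 was not called. CCL20 was at 1.78, 0.332 and 0.679 CPM in control and at 6.89 and 4.73 CPM with TNF, a log2 fold change of 2.64 ± 0.48, or 6.25-fold (adjusted p = 0.00415). CCL2 was the least abundant of the 10, with 35, 17 and 29 counts in control and 76 and 41 counts with TNF. The counts did not overlap, yet the log2 fold change of 1.05 had an interval from -1.73 to 3.83 (adjusted p = 0.636). CX3CL1 was at 6.64, 4.43 and 8.3 CPM in control and at 51 and 41 CPM with TNF. It rose by 2.83 ± 0.22 on the log2 scale, or 7.12-fold (adjusted p = 6.69e-06). Of these 8 calls, those of CXCL2, CXCL11 and CCL20 were not made by limma voom or when only the control and TNF libraries were fitted, which left 5.

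**Figure D2:**
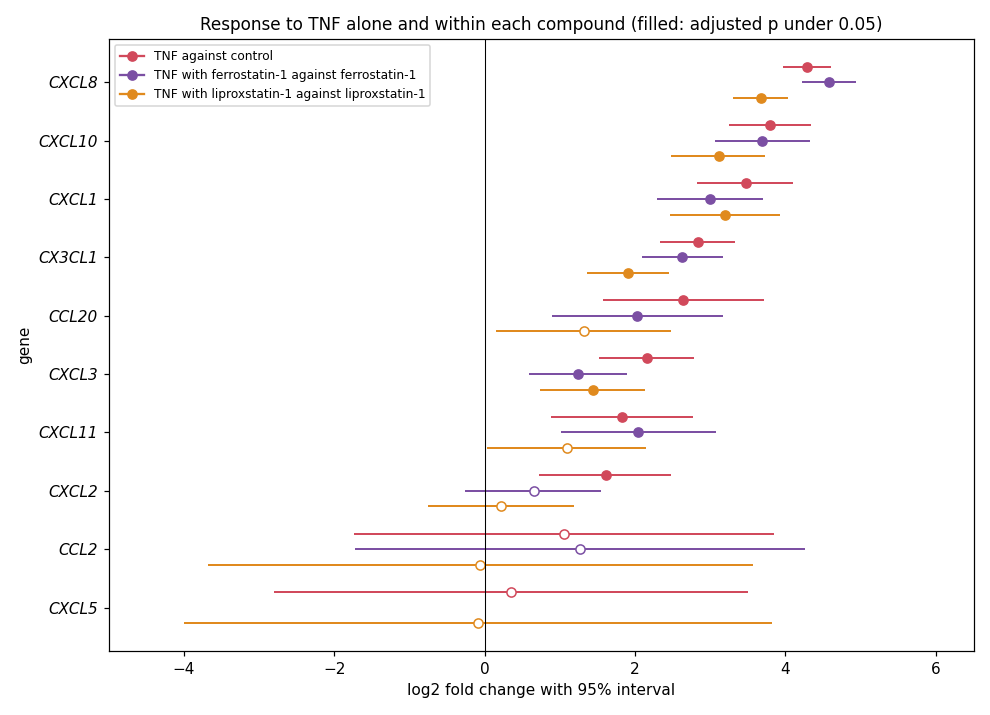
Log2 fold change (horizontal axis) of each chemokine under TNF alone against control, TNF with ferrostatin-1 against ferrostatin-1, and TNF with liproxstatin-1 against liproxstatin-1, with 95% intervals; filled points are called and open points are not. CXCL8, CXCL10, CXCL1, CX3CL1 and CXCL3 are filled in all 3 settings; CXCL5 has no value for TNF with ferrostatin-1, where all libraries are at 0.

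The response to TNF was then read within each compound, that is, TNF with the compound against the compound alone. Within ferrostatin-1, 7 of the 10 chemokines rose, where 8.76% of all genes were called higher, and 1 fell, where 9.36% were called lower. CXCL8 went from 5.06 and 3.57 CPM to 102, 107 and 101 CPM, a log2 fold change of 4.58 ± 0.16 (adjusted p = 3.52e-08). The log2 fold changes were 3.69 ± 0.28 for CXCL10, 3.00 ± 0.31 for CXCL1 and 2.62 ± 0.24 for CX3CL1, all called. CXCL11 (2.04 ± 0.47), CCL20 (2.03 ± 0.51) and CXCL3 (1.24 ± 0.29) were called too, but each of these 3 calls was lost when either ferrostatin-1 library was left out. CXCL2 was at 2.45 and 2.25 CPM with ferrostatin-1 and at 3.41, 4.74 and 2.87 CPM when TNF was added, which was not called (0.65 ± 0.41, adjusted p = 0.33). CCL2 had 37 and 0 counts with ferrostatin-1 and 0, 54 and 71 counts when TNF was added, so the groups overlapped. The gene that fell was CXCL5, which had 325 and 0 counts with ferrostatin-1 and none when TNF was added.

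Within liproxstatin-1, 5 of the 10 chemokines rose and none fell, where 7.57% of all genes were called higher. CXCL8 went from 5.9 and 5.55 CPM to 75.3 and 70.2 CPM, a log2 fold change of 3.67 ± 0.16 (adjusted p = 1.94e-07). CXCL1 (3.20 ± 0.33), CXCL10 (3.11 ± 0.28) and CX3CL1 (1.9 ± 0.25) were called as well. CXCL3 was called at 1.44 ± 0.32 (adjusted p = 0.0106), but not when liproxstatin-1 library 1 or TNF with liproxstatin-1 library 2 was left out. The log2 fold change of CCL20 was 1.32 ± 0.53 (adjusted p = 0.124), that of CXCL11 1.09 ± 0.48 (adjusted p = 0.16) and that of CXCL2 0.22 ± 0.44 (adjusted p = 0.818). Limma voom called CCL20 and CXCL11 (adjusted p = 0.00724 and 0.00992), as did a fit of only these 2 groups, so both gave 7 genes. CCL20 was also called without control library 1 or control library 2. For CCL20 the libraries did not overlap (2.08 and 3.27 CPM against 6.73 and 6.6 CPM), and for CXCL2 they did (3.55 and 4.9 CPM against 4.3 and 5.53 CPM). CXCL5 and CCL2 had log2 fold changes of -0.09 and -0.06 with intervals of more than 3 log2 units on either side.

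Whether the response to TNF itself differed with a compound was tested by interactions, and no chemokine was called in any of the 3. For ferrostatin-1 against no compound, edgeR called 0.00451% of all genes and none of the 10, with 2 of the 10 (CXCL5 and CXCL3) at an unadjusted p under 0.05 and none called by DESeq2 or limma voom. For liproxstatin-1 against no compound it called 0% of all genes, with 3 of the 10 (CXCL8, CX3CL1 and CXCL2) at an unadjusted p under 0.05, 1 called by DESeq2 and none by limma voom. For CXCL8 this interaction was -0.62 ± 0.20 on the log2 scale (interval from -1.04 to -0.19, adjusted p = 0.16 in edgeR and 0.0357 in DESeq2). CX3CL1 gave -0.93 ± 0.32 (adjusted p = 0.175), and CXCL2 gave -1.39 ± 0.59 (adjusted p = 0.229). For liproxstatin-1 against ferrostatin-1, edgeR called 0% of all genes, with 3 of the 10 (CXCL8, CXCL5 and CX3CL1) at an unadjusted p under 0.05. DESeq2 called CXCL8 there and limma voom none. Its interaction was -0.91 ± 0.20 (adjusted p = 0.727 in edgeR and 0.0152 in DESeq2). These comparisons share libraries, so their values are not independent of each other.

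**Figure D3:**
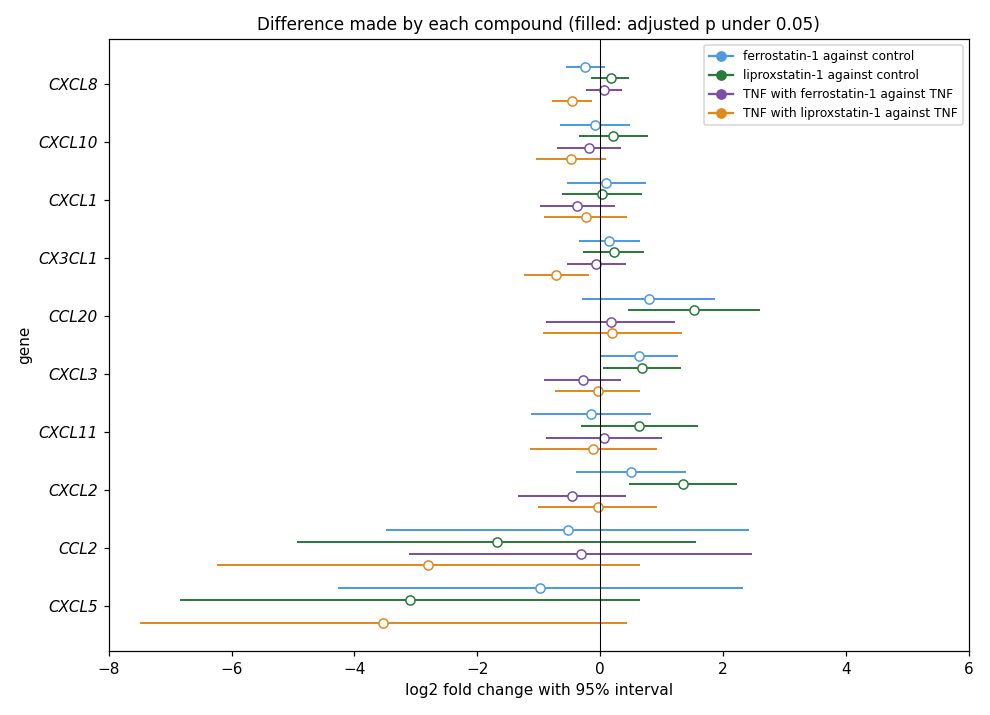
Log2 fold change (horizontal axis, with 95% intervals) that each compound made in the 10 chemokines without TNF (against control) and with TNF (against TNF alone). All points shown are open, that is, not called; CXCL5 with TNF and ferrostatin-1 is left out because all its libraries are at 0.

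Without TNF, neither compound changed the level of any of the 10 genes past the threshold. For ferrostatin-1 against control, where 0.564% of all genes were called, none of the 10 was called by edgeR, DESeq2 or limma voom, and 1 of the 10 had an unadjusted p under 0.05. That gene was CXCL3, at 4.09 and 4.12 CPM against 3.48, 1.45 and 3.01 CPM (log2 fold change 0.63 ± 0.28, adjusted p = 0.391). For liproxstatin-1 against control, where 0.0586% of all genes were called, edgeR called none of the 10, DESeq2 1 and limma voom 1, and 3 of the 10 had an unadjusted p under 0.05. CXCL2 was at 3.55 and 4.9 CPM with liproxstatin-1, above all controls (log2 fold change 1.35 ± 0.40, adjusted p = 0.214 in edgeR and 0.0493 in DESeq2). CCL20 was at 2.08 and 3.27 CPM, also above all controls (1.53 ± 0.48, adjusted p = 0.242). CXCL3 had a log2 fold change of 0.68 ± 0.28 (adjusted p = 0.377). CXCL8, CXCL1, CXCL10 and CX3CL1 had values between 0.03 and 0.22, with intervals from -0.6 to 0.76 over the 4 genes. The bounds are below 1 log2 unit on either side, whereas TNF moved each of these 4 by more than 2 units.

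In TNF with ferrostatin-1 against TNF, 1 of the 10 was called, CXCL5 (lower), where 3.75% of all genes were called lower. CXCL8 was at 102, 107 and 101 CPM with both and at 101 and 97.9 CPM with TNF alone (log2 fold change 0.06, interval from -0.22 to 0.34). For CX3CL1 the value was -0.06 (interval from -0.53 to 0.41), for CXCL10 -0.18 (-0.69 to 0.32) and for CXCL1 -0.37 (-0.96 to 0.23). The CXCL1 libraries did not overlap (29, 27.8 and 28.4 CPM against 40.7 and 32.5 CPM), without passing the test (adjusted p = 0.413). The libraries of CXCL2 (-0.46, interval from -1.32 to 0.4) and CXCL3 (-0.28, -0.89 to 0.32) did not overlap either and were lower with ferrostatin-1, again not called. For CXCL11 (0.06, -0.87 to 0.99), CCL20 (0.17, -0.86 to 1.2) and CCL2 (-0.31, -3.09 to 2.46) the libraries overlapped and the intervals were wide.

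Liproxstatin-1 with TNF was accompanied by lower values of CXCL8 and CX3CL1 than TNF alone, short of the threshold in edgeR. There 0.343% of all genes were called and none of the 10, whereas DESeq2 called 2, limma voom none, and 2 had an unadjusted p under 0.05. CXCL8 was at 75.3 and 70.2 CPM against 101 and 97.9 CPM, a log2 fold change of -0.45 ± 0.14 with an interval from -0.76 to -0.14 (adjusted p = 0.112 in edgeR and 0.0201 in DESeq2). CX3CL1 was at 25.1 and 31.2 CPM against 51 and 41 CPM, a log2 fold change of -0.71 ± 0.24 with an interval from -1.22 to -0.19 (adjusted p = 0.123 in edgeR and 0.0353 in DESeq2). In both genes the libraries of the 2 groups did not overlap, and without TNF library 3 edgeR called both lower (adjusted p = 0.0328 and 0.0258). In that fit it called 6797 genes in this comparison, against 76 with all libraries. For CXCL10 the value was -0.47 ± 0.25 (adjusted p = 0.286), and its libraries did not overlap either (18 and 14.3 CPM against 21.6 and 23.2 CPM). CXCL1, CXCL2, CXCL3, CXCL11 and CCL20 had values from -0.23 to 0.20. CXCL5 and CCL2 had values of -3.53 and -2.80 with intervals of -7.48 to 0.42 and -6.22 to 0.63, so no direction was fixed for them.

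The compounds were also set against each other at the same dose and time. Ferrostatin-1 and liproxstatin-1 are both radical-trapping antioxidants, the former an aromatic amine built on an ethyl benzoate and the latter a spirocyclic quinoxaline amine. Without TNF, 0.104% of all genes were called and none of the 10 by edgeR, DESeq2 or limma voom, with 1 at an unadjusted p under 0.05. That was CXCL8, at 5.9 and 5.55 CPM with liproxstatin-1 and at 5.06 and 3.57 CPM with ferrostatin-1 (log2 fold change 0.41, interval from 0.08 to 0.73, adjusted p = 0.586). With TNF, 0.766% of all genes were called and none of the 10 by edgeR, with 3 of the 10 at an unadjusted p under 0.05, 1 called by DESeq2 and 2 by limma voom. For CXCL8 the log2 difference, liproxstatin-1 minus ferrostatin-1, was -0.51 ± 0.13 (interval from -0.79 to -0.22, adjusted p = 0.151 in edgeR and 0.00533 in DESeq2). The CX3CL1 value was -0.65 ± 0.22 (interval from -1.13 to -0.17, adjusted p = 0.342), with 25.1 and 31.2 CPM against 43.3, 44.4 and 44.8 CPM. For CXCL1, CXCL10 and CCL20 the intervals were -0.46 to 0.73, -0.8 to 0.22 and -1 to 1.05, so differences of up to 1 log2 unit in CCL20 remain within the error.

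CXCL5 had the most uneven levels of the 10. Its counts were 360, 319 and 285 in control, 325 and 0 in the ferrostatin-1 group and 7 and 60 in the liproxstatin-1 group. The TNF libraries held 334 and 515 counts, those given TNF plus ferrostatin-1 none at all, and those given TNF plus liproxstatin-1 63 and 0. The ferrostatin-1 libraries thus spanned nearly the whole range within 1 group. In TNF with ferrostatin-1 against TNF it fell at least 371-fold, taking 3 counts over the group at 0 as the floor (adjusted p = 0.0465). This call was lost in 16 of 21 alternative fits, including 11 of the 14 that left out 1 library. In TNF with ferrostatin-1 against ferrostatin-1 it was called lower as well (adjusted p = 0.0376), but 1 of the ferrostatin-1 libraries was itself at 0 and the groups overlapped, so no fold is given. That call was lost in 8 of 19 alternative fits, among them each that left out a control library or a library of TNF with ferrostatin-1. Without ferrostatin-1 library 1 both groups were at 0.

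**Figure D4:**
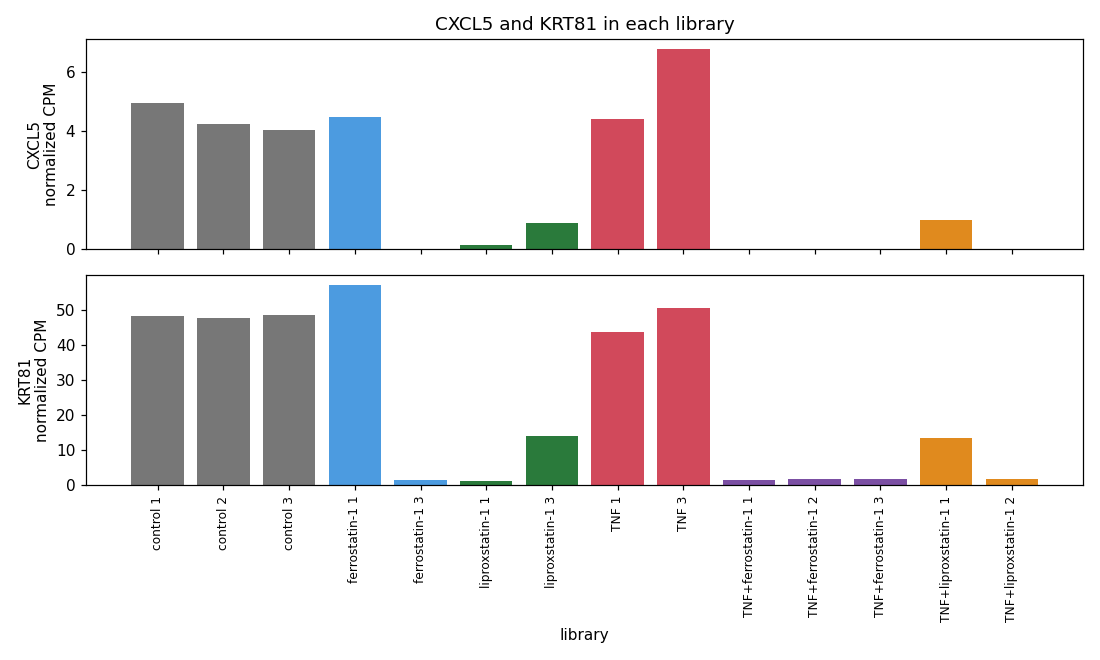
Normalized CPM of CXCL5 (upper bars) and of the keratin gene KRT81 (lower bars) in each library, on linear axes from 0; colours mark the groups. Both genes are high in the control and TNF libraries and in ferrostatin-1 library 1, and lower in the others, with KRT81 at 57.1 CPM in ferrostatin-1 library 1 and 1.45 CPM in library 3.

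The genes whose log2 CPM was most like that of CXCL5 over the 14 libraries were AL161431 (Pearson's r = 0.992), ANXA8 (0.986) and KRT81 (0.968). KRT81, a keratin gene, was at 47.6 to 48.4 CPM in control, 57.1 and 1.45 CPM after ferrostatin-1 and 1.05 and 14 CPM after liproxstatin-1. It was at 43.7 and 50.4 CPM after TNF, 1.47 to 1.79 CPM after TNF plus ferrostatin-1 and 13.5 and 1.85 CPM after TNF plus liproxstatin-1. It fell in TNF plus ferrostatin-1 against TNF (-4.82 ± 1.24, adjusted p = 0.0463). KRT7, SERPINB2 and INHBA were likewise unequal within groups: KRT7 stood at 100 CPM in ferrostatin-1 library 1 and at 9.51 CPM in library 3. Fibroblast markers also differed between these libraries: COL1A2 had 404 and 724 counts with TNF and 0 in all 3 libraries of TNF with ferrostatin-1. That difference was not called (adjusted p = 0.061). In that comparison COL1A1, COL3A1 and DCN were called lower, as CXCL5 was, 3 of the 10 fibroblast and endothelial markers. So were 4 of the 10 epithelial markers (KRT8, KRT18, KRT19 and CDX2, by 0.41 to 0.81 on the log2 scale), where 3.75% of all genes were called lower. The endothelial markers VWF (2.04), CDH5 (1.01) and PECAM1 (0.9) went the other way on the log2 scale. Their libraries did not overlap between the groups, and none was called. The summed fibroblast and endothelial level was 36.7 to 57.8 CPM with TNF and 15.9 to 52.4 CPM with TNF and ferrostatin-1. The endothelial marker VWF ran from 0 to 29.1 CPM and did not follow CXCL5 (0.262 CPM in ferrostatin-1 library 1 and 22.9 CPM in library 3). The part of any of these genes in the CXCL5 values was not tested.

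Levels of different genes can be compared only per length, for which the deposited FPKM of the control group and both groups given TNF plus a compound were used, since FPKM columns of the other groups could not be tied to one sample each. In control the 10 genes were close together. Mean FPKM ran from 2.28 for CXCL1 and 2.15 for CXCL8, which overlapped, through 1.72 for CXCL5 and 1.51 for CXCL11 to 0.166 for CCL2, and of 9 neighbouring pairs only CXCL8 and CXCL5 did not overlap. After TNF plus ferrostatin-1, CXCL8 led at 46.7 FPKM (45.9 to 48.4), followed by CXCL1 at 21.1 (20.6 to 21.5), CXCL10 at 17.0 (15.4 to 18.9) and CX3CL1 at 7.51 (7.33 to 7.66), with no overlap between these neighbours. CXCL11 (6.04), CXCL3 (4.42) and CCL20 (4.14) came next and overlapped as neighbours, then CXCL2 (2.65), CCL2 (0.307) and CXCL5, which was listed at 0. After TNF plus liproxstatin-1 the leading order CXCL8 (32.6 FPKM), CXCL1 (22.9) and CXCL10 (13.8) was the same, again without overlap. CX3CL1 had rank 6 there (4.74 FPKM), overlapping CCL20 (4.18) below it and CXCL3 (5.18) above it, where it had rank 4 after TNF plus ferrostatin-1.

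**Figure D5:**
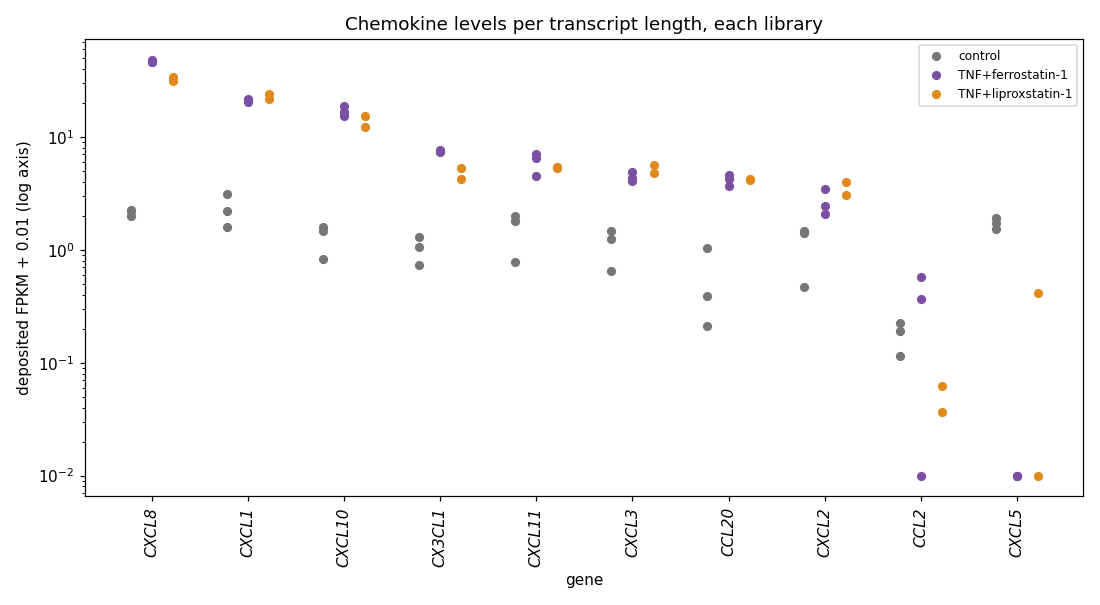
Deposited FPKM plus 0.01 (log axis) of each chemokine in each library of the control group and of both groups given TNF plus a compound, genes ordered by their mean after TNF plus ferrostatin-1; points at 0.01 are zeros. Leaving out CCL2 and CXCL5, control libraries lie between 0.203 and 3.09 FPKM and libraries with TNF between 2.08 FPKM for CXCL2 and 48.4 FPKM for CXCL8.

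Across groups, the order of mean CPM within a gene separated the 3 groups with TNF from the 3 without it for 7 genes: CXCL1, CXCL3, CXCL8, CXCL10, CXCL11, CCL20 and CX3CL1. Neighbouring groups without TNF mostly overlapped. In CXCL2 the means ran from 5.06 CPM with TNF through 4.91 with TNF and liproxstatin-1, 4.23 with liproxstatin-1 and 3.67 with TNF and ferrostatin-1 to 2.35 with ferrostatin-1 and 1.66 in control. Libraries of the first 4 groups overlapped from each to the next, so liproxstatin-1 alone fell among the groups with TNF.

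Over the 14 libraries the level of CXCL8 was most like those of ICAM1 (an adhesion molecule for leukocytes, r = 0.996), GBP4 (a guanylate-binding protein, r = 0.996) and TNFAIP3 (an NF-kB inhibitor, r = 0.995). For CXCL10 the nearest were GBP4 (0.993), NFKB2 (0.993) and ICAM1 (0.992), and for CXCL1 NFKBIE (0.991), NFKB2 (0.99) and AL391056 (0.988). CX3CL1 was nearest to IRAK2 (0.992), RHBDF2 (0.991) and KLK10 (0.989), and CXCL11 to GCH1 (0.944), LAP3 (0.943) and GBP1 (0.943). CXCL3 was nearest to PSORS1C1 (0.973), ODF3B (0.972) and AL645939 (0.968), and CCL20 to AL645939 (0.946), PSORS1C1 (0.936) and PIWIL4 (0.925). Likeness was lower for CXCL2, with ISG20 (0.915), RSAD2 (0.9) and BTC (0.899), and lowest for CCL2, with PMEL (0.799), TGFB1I1 (0.794) and PLPP5 (0.767). TNF was present in 7 of the 14 libraries, so the difference it makes is part of every such r, and the values describe likeness only. Among the chemokines themselves, r over the 14 libraries was 0.99 for CXCL8 with CXCL10 (Spearman's rho 0.86) and 0.98 for CXCL8 with CX3CL1 (rho 0.87). With group means removed, the same r was 0.29 and 0.03, while over all pairs of the 10 genes it ran from -0.46 (CXCL5 with CX3CL1) to 0.87 (CXCL1 with CXCL8, and CXCL2 with CXCL3, which share sequence). CXCL3 with CCL20 had 0.83.

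Other chemokine genes were listed for comparison. Of 34 such genes, 23 had a row, 12 passed the filter, and 5 rose with TNF while none fell: CCL22 (log2 fold change 3.36), CXCL6 (2.61), CCL28 (2.04), CXCL16 (1.61) and CCL5 (1.29). Of all genes, 8.24% were called higher in that comparison. CXCL6, an ELR ligand of CXCR1 and CXCR2, lies between CXCL8 and CXCL1 and was at 0.765 CPM in control and 4.67 CPM with TNF (adjusted p = 0.0281). The other genes between CXCL8 and CXCL2 were near 0: PF4V1 had 0 counts, PPBP 25, PPBPP2 6, HNRNPA1P55 2, AC093677 54 and PF4 171 counts over all 14 libraries, and PF4 and AC093677 were not called in any comparison of TNF. ART3, which overlaps CXCL10 and CXCL11 on the other strand, had 22 counts. Within ferrostatin-1 the same number, 5 of 12, rose with TNF and none fell, the highest values being CCL22 (3.43), CXCL6 (3.16) and CCL28 (2.25). Within liproxstatin-1 it was 4 of 12, led by CXCL6 (3.89), CCL28 (2.36) and CCL22 (1.86). The shares of all genes called higher were 8.76% within ferrostatin-1 and 7.57% within liproxstatin-1.

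Several receptors of these ligands were close to 0 in HT-29 cells. Of 22 chemokine receptor genes 19 had a row and 10 passed the filter. CXCR2, the receptor of the ELR ligands, had group means of 0 to 0.0594 CPM, CX3CR1 of 0 to 0.0276 CPM and CCR6 of 0 to 0.0138 CPM. With TNF 2 of 10 rose, where 8.24% of all genes did: CXCR3, the receptor of CXCL10 and CXCL11, from 0.369 to 1.5 CPM (log2 fold change 2.01, adjusted p = 0.0352), and ACKR4, an atypical receptor, by 0.83 (adjusted p = 0.0176). Within ferrostatin-1 CXCR3 rose by 2.50 and CXCR6 fell by 1.82, and within liproxstatin-1 CXCR6 fell by 1.73 on the log2 scale. Each fall is 1 of 10 receptors, where 9.36% and 7.03% of all genes were called lower. The CXCR3 rise within ferrostatin-1 is likewise 1 of 10, where 8.76% were called higher. Within liproxstatin-1 CXCR3 was not called, although its mean went from 0.439 to 1.59 CPM and the libraries did not overlap.

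Upstream of the chemokines, 13 of 28 genes of the TNF receptor and NF-kB pathway rose with TNF and 1 fell, where 8.24% of all genes were called higher and 6.44% lower. The largest rises were those of the inhibitor TNFAIP3 (4.18 ± 0.12), the ubiquitin ligase BIRC3 (3.39 ± 0.48), the inhibitors NFKBIE (3.02 ± 0.16) and NFKBIA (2.75 ± 0.11), and the subunit RELB (2.76 ± 0.20), all as log2 fold changes. The kinase adaptor TAB3 fell by 0.69. The median over the 28 was 0.36. Within ferrostatin-1 and within liproxstatin-1, 11 rose and 1 fell each time, the latter being the receptor TNFRSF1A (-0.65 and -0.97). Of all genes, 8.76% and 7.57% were called higher in these comparisons, and 9.36% and 7.03% lower. None of the 28 was called in any comparison of compound with no compound or of the compounds, nor in the interactions.

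Where 8.24% of all genes were called higher with TNF, 13 of 20 genes of interferon, IRF and STAT signalling rose and none fell. They were led by the type III interferon IFNL1 (2.77 ± 0.78), the receptor chain IFNAR2 (1.58 ± 0.10), STAT2 (1.48 ± 0.13), the feedback inhibitor SOCS3 (1.44 ± 0.38) and the receptor chain IFNGR1 (1.29 ± 0.16). The median was 1.00. Within ferrostatin-1 10 rose, led by IFNL1 (2.86), IFNGR1 (1.58) and IFNAR2 (1.46), and within liproxstatin-1 6 rose, led by IFNAR2 (1.39) and IFNGR1 (0.95). The shares of all genes called higher there were 8.76% and 7.57%. Of 13 tested genes linked to chemokine mRNA decay or ligand processing, 3 rose with TNF: the protease CTSS (2.78 ± 0.12) and the RNA-binding proteins ZFP36L1 (0.57 ± 0.12) and ZC3H12A (0.52 ± 0.13). The peptidase DPP4, which trims CXCL10 and CXCL11, fell by 1.11, and the RNA-binding proteins RC3H1 and ZFP36L2 fell by 0.97 and 0.40. With TNF, 8.24% of all genes were called higher and 6.44% lower. Ferrostatin-1 with TNF against TNF gave lower ZFP36L1 (-0.49, adjusted p = 0.0448) and higher DPP4 (0.94, adjusted p = 0.0431). Each is 1 of 13 genes, where 3.75% of all genes were called lower and 1.77% higher. Within each compound TNF was also accompanied by lower ZFP36, which encodes an mRNA decay factor (-1.40 with ferrostatin-1 and -1.39 with liproxstatin-1). Among the marker lists, TNF was accompanied by lower LGALS4 (-1.5), VIL1 (-0.68) and CDH1 (-0.59), 3 of 10 epithelial markers. ITGAM (5.57) was called higher, 1 of 6 tested leukocyte markers, whose values ran from -0.64 to 5.57. Of the 10 fibroblast and endothelial markers, COL1A1 (2.01) and ACTA2 (1.71) were called higher. Those 10 values ran from -1.96 (VWF) to 3.45 (COL3A1), neither of them called. The part of these markers in the chemokine results was not tested. Within ferrostatin-1, 4 of 10 epithelial markers fell with TNF (LGALS4 by 2.06, CDH1 by 1.06, VIL1 by 0.71 and KRT20 by 0.52). ITGAM (5.32) rose, 1 of 6 tested leukocyte markers. Of the 10 fibroblast and endothelial markers, ACTA2 (2.20) rose and DCN fell. There 8.76% of all genes were called higher and 9.36% lower. Within liproxstatin-1, 3 of 10 epithelial markers fell with TNF (LGALS4 by 2.02, CDH1 by 0.90 and VIL1 by 0.44). Of the 10 fibroblast and endothelial markers 1 rose, ACTA2 (1.40). Of 6 tested leukocyte markers, 2 were called higher, ITGAM (6.45) among them, and CD14 fell (by 0.53). In this comparison 7.57% of all genes were called higher and 7.03% lower. The part of these markers was not tested either.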

How the data were processed

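Messenger RNA of 14 HT-29 libraries in 6 groups was sequenced as paired ends after poly(A) selection with a strand-marking (dUTP) protocol, per the labels. The authors deposited 1 table of raw counts per gene, summing to 59913850 to 75838597 per library, with FPKM beside them. The tools named, per the submitters' processing notes, are DESeq2 and edgeR without a version, StringTie 1.3.4d, HISAT2 2.0.4 and cutadapt 1.9, with no role or order stated, and no genome build, annotation, counting program or strand setting is named in these sources. FPKM values, deposited by the authors, were used only to compare levels between genes, in the 3 groups whose columns match single samples, and 6 FPKM columns were not used. Count columns of the ferrostatin-1, liproxstatin-1 and TNF groups are numbered 1 and 3 where the sample titles say 1 and 2, so they were matched to their group only.

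Counts were tested with edgeR 4.0.16 (R 4.3.3): filterByExpr, TMM scaling and the quasi-likelihood test in 1 model of 6 groups, for 12 comparisons including 3 interactions, with Benjamini-Hochberg adjustment over 22179 genes and a threshold of 0.05. Every adjusted p in the text is from this test unless another tool is named. SE is the log2 fold change divided by the square root of the F statistic, and intervals are 95% t intervals. Where all libraries of a group are at 0, a ratio of group totals was computed from a floor of 3 counts over the group. Intervals cover only counting error and the spread between libraries, and the ratio from the floor leaves out that spread. DESeq2 1.42.0, limma 3.58.1 (voom with quality weights), other scalings and filters, fits of only the groups compared, a replicate block and leaving out each library were tried as alternatives. The edgeR script was tested on simulated data.

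The chemokines and the other lists were chosen with earlier results of these data known. Named were all 10 chemokines, the largest called genes of each list (up to 5 per direction for TNF against control, up to 3 otherwise), every gene of the table between clustered members, and the 3 genes of mean CPM at least 1 with the highest Pearson correlation to each member. Some genes of these lists are not reported here. KRT81, KRT7, SERPINB2 and INHBA were named because they were known to be unequal within groups. COL1A2, VWF, CDH5 and PECAM1 are markers whose values were chosen for naming after they were seen. Promoter sequences are from RefSeq, and motifs were searched in the 250 bases upstream with Python 3.11.15 and biopython 1.88.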

Additional observations from a re-analysis of the deposited data

How the results depend on the processing

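Of the results for single chemokines under the alternatives, 2441 kept their side of the threshold, 39 lost a call, 23 gained one, and none that was called reversed. The number of the 10 chemokines called for TNF against control was 8, and 5 both under limma voom and when only the groups compared were fitted. For TNF with ferrostatin-1 against TNF it was 1 (CXCL5), and 0 under relative log expression scaling, without a filter, under limma voom, with only the groups compared, and with the replicate block. DESeq2 called 1 for liproxstatin-1 against control, 2 for TNF with liproxstatin-1 against TNF, 1 for TNF with liproxstatin-1 against TNF with ferrostatin-1, and 1 in each of the interactions of TNF with liproxstatin-1 and of TNF with the compound, where edgeR called 0. Limma voom called 1 for liproxstatin-1 against control and 2 for TNF with liproxstatin-1 against TNF with ferrostatin-1, and the fit of only the groups compared also called 2 there. The cause of these differences was not tested.

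Leaving out each library in turn gave 7 to 8 chemokines for TNF against control (7 without TNF library 3), 4 to 8 for TNF with ferrostatin-1 against ferrostatin-1 (4 without ferrostatin-1 library 1, 5 without library 3), and 4 to 6 for TNF with liproxstatin-1 against liproxstatin-1. It gave 0 to 1 for TNF with ferrostatin-1 against TNF, 0 to 2 for TNF with liproxstatin-1 against TNF and for the interaction of TNF with liproxstatin-1 (2 without TNF library 3 in both), 0 to 1 for TNF with liproxstatin-1 against TNF with ferrostatin-1 (1 without TNF library 1 and 1 without TNF library 3), and 0 for the other 5 comparisons. Where a group was left with 1 library, that library was assumed to vary like the other groups. CXCL5 gave no value in 2 of these fits because both groups were then at 0.

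No pairing of libraries by the count columns' numbers was seen: same-numbered libraries of different groups had deviations correlated at -0.1 to 0.13 (median -0.01, 28 pairs, 1 over 0.1). Libraries in a group of 2 deviate as mirror images, so these pairs are not independent and the check cannot exclude a pairing. With the replicate block the number of chemokines called was 7 in place of 8 for TNF with ferrostatin-1 against ferrostatin-1, 0 in place of 1 for TNF with ferrostatin-1 against TNF, and unmoved in the other comparisons. Counts over all genes moved more than those over the chemokines: for TNF against control 3255 genes were called, 397 when only the groups compared were fitted and 7380 without TNF library 3. Groups of 2 libraries limit the precision, and CXCL5 and CCL2, with 0 counts in some libraries, the direction.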
